A study of Homo sapiens with 9 samples.

Results

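The genes of the hypoxia-inducible factor (HIF) pathway were followed in RNA-seq libraries of HCT116, an established cell line from a human colorectal carcinoma. The 37 genes were chosen by name from the 58735 genes of the deposited table, as HIF subunits, HIF regulators and hypoxia-induced genes outside glycolysis, and earlier results of these same libraries were known when they were chosen. No threshold on a measured value is stated for that choice, and the values and tests given for the genes are therefore a description of them and no independent evidence about the pathway. Of the 37 genes, 36 passed the filter on low values (a mean of at least 0.1 FPKM over the 9 libraries), as did 21636 of all genes. The gene that did not pass was RORA, a nuclear receptor gene, with 5, 2 and 2 reads in the A20-WT libraries, 4, 7 and 1 in those labelled A20-KO and 14, 16 and 9 in A20-OE.

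The series compared 3 groups with 3 libraries each. A20-WT were the wild-type cells, A20-KO were cells in which the gene of A20 (TNFAIP3, a ubiquitin-editing enzyme that restrains NF-κB signalling) was targeted with an sgRNA, and A20-OE were rescued A20-KO cells, in which A20 was expressed again. The sgRNA was delivered in the lentiviral LentiCRISPR v2 vector with puromycin selection, and the sources used here do not say whether the edited cells were 1 clone or a pool, nor which vector made the rescued cells. For the A20 expression vector that the study describes, the name gives a CMV promoter. The cells were grown in medium with serum in a humidified incubator with CO2, and neither a low-oxygen nor a chemical hypoxia treatment is named for any of the 3 groups. Nothing in the labels says that the replicates were separate cultures, so p-values measure only the spread between these libraries, which may be technical.

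HIF is a dimer of an oxygen-regulated alpha subunit (HIF-1α from HIF1A, HIF-2α from EPAS1) and the stable partner ARNT. Prolyl hydroxylases encoded by the EGLN genes use oxygen to hydroxylate the alpha subunit, VHL then recruits a ubiquitin ligase, and the protein is destroyed. In low oxygen the alpha subunit accumulates, enters the nucleus with ARNT and binds hypoxia response elements with the core ACGTG or GCGTG. The best known target genes serve glycolysis, blood vessel growth, pH control, mitochondrial removal and collagen modification, and several targets, EGLN3 among them, feed back on the pathway. Since the alpha subunits are regulated mainly as proteins, their mRNA levels are not a measure of HIF activity.

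Promoter sequence was read for the members from the RefSeq promoters of GRCh38.p14, which hold 250 bases before and 50 after each start site. Promoters were found for 32 of the 37 genes, in 42 windows of 300 bases, some genes having several start sites, and VHL, VEGFA, BNIP3L, JMJD6 and FUT11 had no entry. The letters ACGTG, on either strand, occurred in 23 of the 42 windows (54.8%), against 7518 of all 35116 promoter windows (21.4%) and 4067 of the 16321 windows of genes that were tested for expression (24.9%). Counted by gene, they were in at least 1 window of 20 of the 32 members (62.5%) and of 3569 of the 11371 tested genes that have a window (31.4%). These hits include those inside CACGTG, the E-box, which reads the same on both strands. The E-box was in 9 of the 42 windows (21.4%), against 7.26% of all windows and 9.2% of those of tested genes. By gene, it was in 9 of the 32 members (28.1%) and in 12.3% of tested genes with a window. The other core, GCGTG, was by gene in 18 of the 32 members (56.2%) and in 56.7% of tested genes with a window. A match describes the letters of the window and is not a measured binding site. Stretches of 60 bases around the match closest to the start site are shown here for the members that were called more than 2-fold higher in at least 1 of the 2 comparisons of the design and have a promoter entry, and for CA9, a classical HIF-1 target that was not called. They are written 5′ to 3′ on the strand of the gene, with ACGTG or its reverse complement CACGT in capitals.
ANGPTL4: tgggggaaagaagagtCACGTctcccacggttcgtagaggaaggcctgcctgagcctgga
ANKRD37: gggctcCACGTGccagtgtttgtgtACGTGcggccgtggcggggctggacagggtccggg
BHLHE40: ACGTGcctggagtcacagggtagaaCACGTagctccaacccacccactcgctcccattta
BNIP3: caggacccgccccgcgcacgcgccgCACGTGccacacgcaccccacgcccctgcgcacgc
DDIT4: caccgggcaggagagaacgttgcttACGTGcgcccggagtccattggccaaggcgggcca
FAM162A: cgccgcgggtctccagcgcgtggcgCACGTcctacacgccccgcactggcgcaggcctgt
P4HA1: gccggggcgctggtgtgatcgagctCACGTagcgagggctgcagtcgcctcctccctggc
CA9: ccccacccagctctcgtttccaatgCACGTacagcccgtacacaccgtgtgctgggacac
On GRCh38.p14 these stretches are chr19:8363905-8363964 (plus strand) for ANGPTL4, chr4:185396673-185396732 (plus strand) for ANKRD37, chr3:4979263-4979322 (plus strand) for BHLHE40, chr10:131982023-131982082 (minus strand) for BNIP3, chr10:72273774-72273833 (plus strand) for DDIT4, chr3:122384073-122384132 (plus strand) for FAM162A, chr10:73096918-73096977 (minus strand) for P4HA1 and chr9:35673885-35673944 (plus strand) for CA9. The match nearest to the start site began 18 bases before it in CA9, 84 in FAM162A, 86 in P4HA1 and 125 in DDIT4. It began farther upstream in BNIP3 (134 bases), ANKRD37 (143 bases), BHLHE40 (149 bases) and ANGPTL4 (234 bases). In BNIP3 the match is an E-box, and ANKRD37 holds an E-box and a separate ACGTG in the same stretch.

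**Figure D1:**
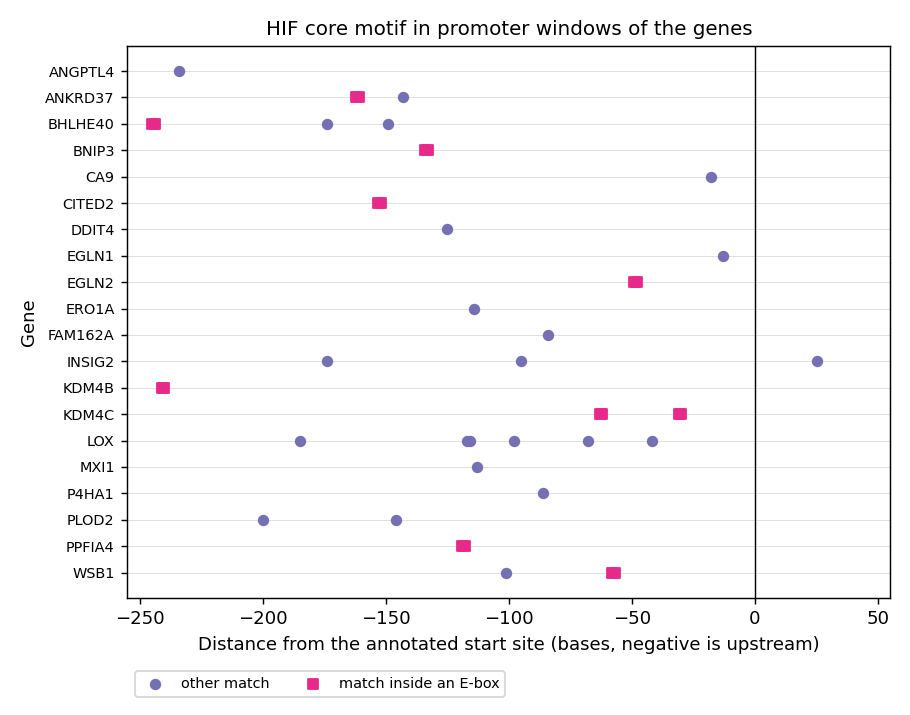
Position of ACGTG (either strand) in the RefSeq promoter windows of the 20 member genes that hold it, as distance in bases from the start site (0). Each mark is 1 match, and matches inside the E-box CACGTG are drawn apart from the others. INSIG2 and LOX have several windows, so 1 stretch of DNA can appear at more than 1 distance, and an E-box gives a pair of marks because it reads on both strands.

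The deposited values are FPKM, and the reads behind them could be recovered for 100% of the nonzero values within 0.02 of a read, with 23406222 to 24963691 reads per library. Mitochondrial genes took 7.52 to 10.11% of the reads in A20-WT, 9.18 to 11.86% in the A20-KO-labelled libraries and 11.97 to 13.95% in A20-OE. Replicates differed beyond counting noise in every group, and A20-WT replicate 1 stood apart from the others (a chi-square per degree of freedom of 39.8 and 71.3 against A20-WT replicates 2 and 3, which gave 14.5 with each other). A20-KO replicate 3 stood apart in the same way, with 27.4 and 39.4 against A20-KO replicates 1 and 2, which gave 8.23 with each other. Epithelial markers were expressed in all libraries (6 of 8 above 1 FPKM, with a summed level of 1092 to 1472 FPKM in A20-WT, 1696 to 2241 in A20-KO and 1687 to 2231 in A20-OE), although CDX1 and VIL1 were near 0. The leukocyte and endothelial markers summed to at most 0.429 FPKM in any library, and the fibroblast markers to 4.56 to 5.82, 12.5 to 15.0 and 11.1 to 12.2 FPKM in the 3 groups, nearly all of it COL1A1. In bulk RNA, fewer cells of a type and less RNA per cell cannot be told apart.

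The mRNA of TNFAIP3, the targeted gene, was 0.869, 0.8 and 0.736 FPKM in A20-WT, 1.93, 2.16 and 1.04 in the A20-KO-labelled libraries and 58.7, 66.5 and 56.5 in A20-OE. It was thus not lower but higher in the A20-KO-labelled libraries, all 3 of which lay above the A20-WT libraries, with a log2 fold change of 0.95 (SE 0.23, adjusted p = 0.0182) from limma. This call was lost in 4 of 20 other limma fits, among them without A20-WT replicate 2 or A20-KO replicate 1 or 2 (adjusted p 0.0544 to 0.0701), with adjusted p from 0.0014 to 0.083 over the 20. An sgRNA edits DNA and need not lower the mRNA, so the mRNA does not check the A20-KO label. A20-KO is used from here on as the label of these libraries.

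The question of the design was how expression differs between A20-KO and A20-WT cells and between A20-OE and A20-KO cells. Many members were higher in A20-OE than in either other group, and among those called against A20-KO the log2 fold changes of FAM162A, BNIP3, P4HA1 and BNIP3L came first. Several, led by ANKRD37, ANGPTL4 and P4HA1, were also higher in the A20-KO-labelled libraries than in A20-WT. Against A20-WT, limma called 16 of the 36 tested members higher in the A20-KO-labelled libraries (44.4%, where 11.3% of all genes tested were called higher) and 1 lower (2.78%, where 11% of all genes were). The member called lower was HIF1A. From A20-KO to A20-OE, 19 of 36 members were called higher (52.8%, against 4.43% of all genes) and 1, JMJD6, lower (2.78%, against 4.54%). Between A20-OE and A20-WT, 24 of 36 were called higher (66.7%, against 15.7% of all genes) and 2, HIF1A and JMJD6, lower (5.56%, against 15.4%). In all, 28 of the 36 were called in at least 1 of the comparisons, which share libraries with each other and are not independent. Called here means an adjusted p under 0.05 (limma, Benjamini-Hochberg over the 21636 genes). With the additional demand of a fold change above 2, 5 members were higher in A20-KO than in A20-WT (13.9%, against 4.91% of all genes), 4 were higher in A20-OE than in A20-KO (11.1%, against 1.56%) and 14 in A20-OE than in A20-WT (38.9%, against 7.68%). The median log2 fold change of the 36 members was 0.33 for A20-KO against A20-WT, 0.54 for A20-OE against A20-KO and 0.77 for A20-OE against A20-WT, where the medians of all genes tested were -0.01, 0.01 and 0.03.

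The fit was repeated in 20 other ways, 11 with another setting and 9 that left out 1 library each, and the counts moved most when 1 library was left out. Such a fit also has fewer libraries to estimate the spread, so a call can be lost while the fold change stays. HIF1A in A20-KO against A20-WT kept its log2 fold change of -0.62 without each A20-OE library, yet was no longer called. Of members higher in A20-KO than in A20-WT, 10 were called without A20-WT replicate 2 and 10 without A20-KO replicate 1, where 1768 and 1587 of all genes were called higher in place of 2436. Of members higher in A20-OE than in A20-KO, 9 were called without A20-KO replicate 1, 12 without A20-KO replicate 3, and 7, 8 and 9 without A20-OE replicates 1, 2 and 3. In these fits 368, 501, 246, 294 and 454 of all genes were called higher, in place of 958. Without A20-WT replicate 1, which stood apart, the counts were 16 higher and 1 lower for A20-KO against A20-WT, 20 and 2 for A20-OE against A20-KO, and 25 and 2 for A20-OE against A20-WT. That fit called 2153, 1445 and 3279 of all genes higher and 2159, 1792 and 3458 lower. Without A20-KO replicate 3 the member counts were 13 and 1, 12 and 0, and 24 and 2 in the same order. There 1777, 501 and 3503 of all genes were called higher and 1752, 422 and 3497 lower. The mitochondrial share was highest in A20-OE, and with values scaled to the reads outside mitochondrial genes 17, 18 and 24 members were called higher in the 3 comparisons. With that scaling 2629, 835 and 3378 of all genes were called higher. With only genes of a mean of at least 1 FPKM tested, 18, 20 and 24 of 33 members were called higher in the same order. Of the 12796 genes in that fit, 2169, 947 and 2613 were called higher, so the share over all genes depends on the filter.

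**Figure D2:**
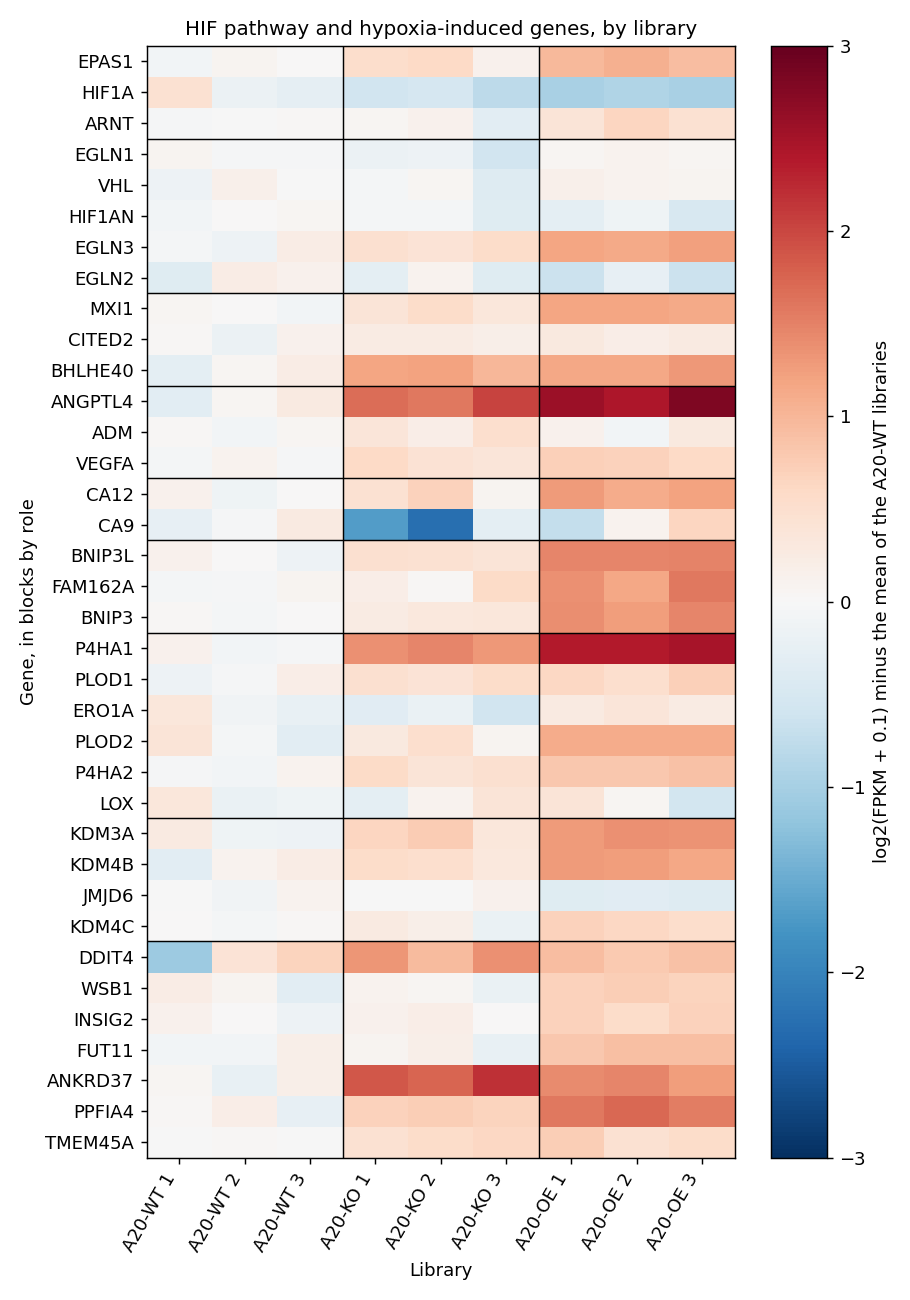
Level of each of the 36 genes that passed the filter in each of the 9 libraries, as the log2 of FPKM + 0.1 relative to the gene's mean over the A20-WT libraries, with genes in rows grouped by role and libraries in columns. ANGPTL4 and P4HA1 are the rows with the strongest rise from A20-WT to A20-OE, and HIF1A is below its A20-WT mean in every library of the other groups.

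**Figure D3:**
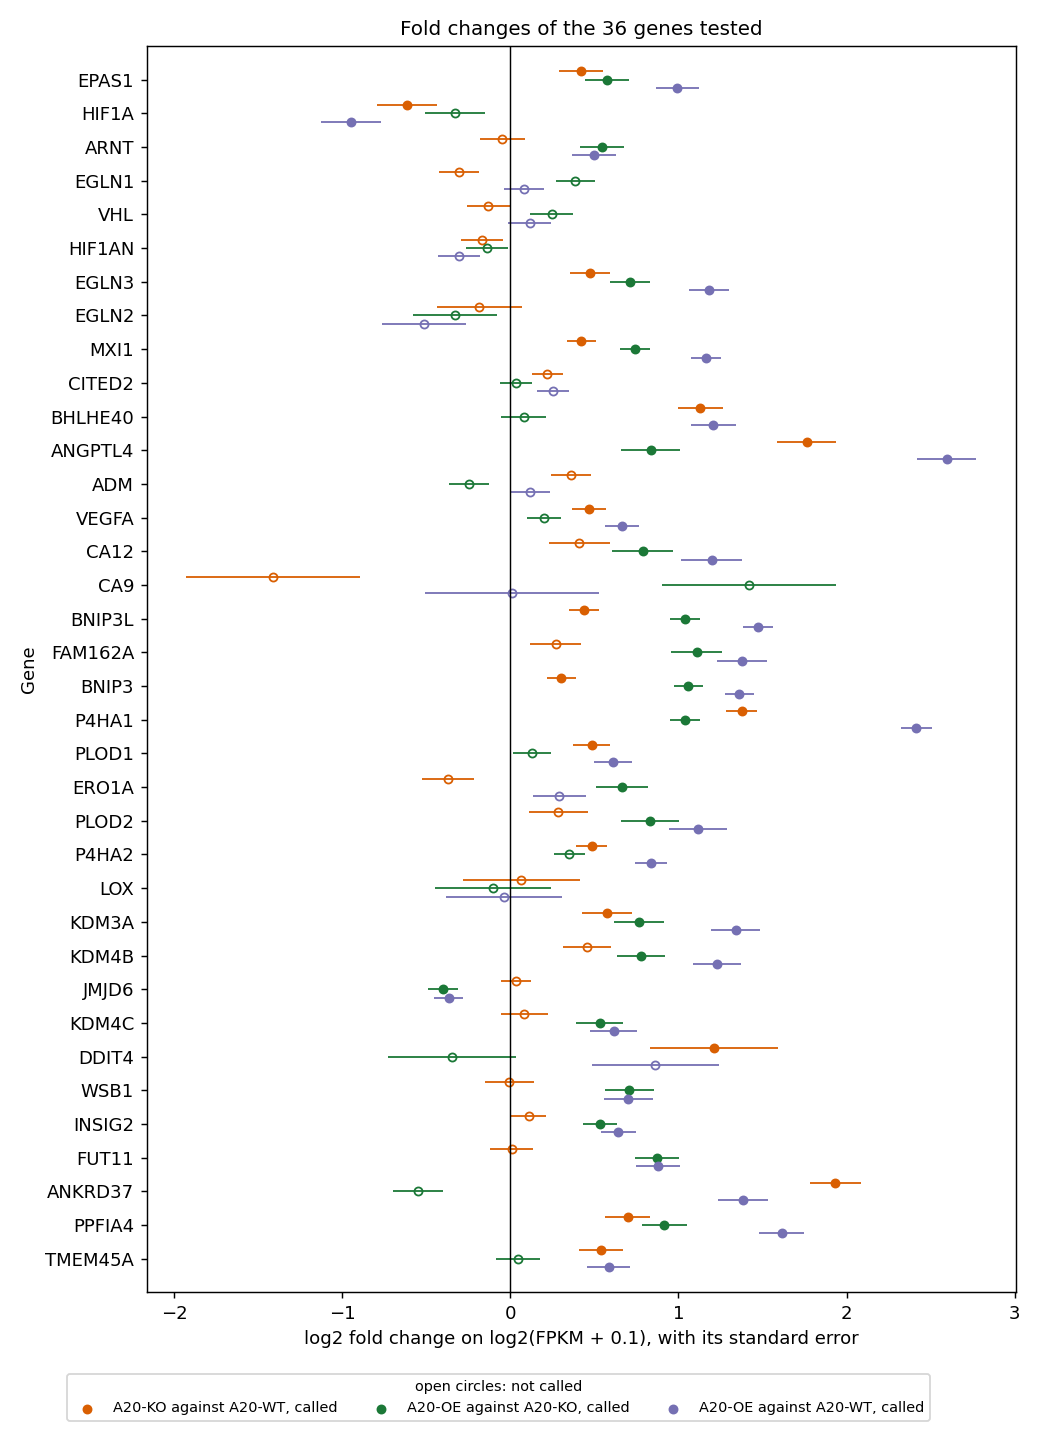
Log2 fold changes of the 36 tested genes on the log2(FPKM + 0.1) scale, with their standard errors, for A20-KO against A20-WT, A20-OE against A20-KO and A20-OE against A20-WT, with filled circles for adjusted p under 0.05 (limma) and open circles otherwise. HIF1A and JMJD6 are the genes with filled circles left of 0.

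From A20-WT to A20-OE the mRNAs of the 2 alpha subunits moved in opposite directions. HIF1A (ENSG00000100644, chr14:61695513-61748259, plus strand on GRCh38), which encodes HIF-1α, was at 48.4, 31 and 29.1 FPKM in A20-WT, 23.8, 24.9 and 20.4 in the A20-KO-labelled libraries and 18, 18.8 and 17.9 in A20-OE. The groups did not overlap in any comparison, A20-WT being highest and A20-OE lowest, and A20-WT replicate 1 lay far above the other A20-WT libraries. HIF1A mRNA fell from A20-WT to A20-KO with a log2 fold change of -0.62 (SE 0.18, adjusted p = 0.0364) and from A20-WT to A20-OE with -0.95 (SE 0.18, adjusted p = 0.0037), and was not called between A20-KO and A20-OE at -0.33 (SE 0.18, adjusted p = 0.286) (limma). Without A20-WT replicate 1 the fall to A20-KO was -0.39 (adjusted p = 0.0273) and the difference from A20-KO to A20-OE was called, at -0.33 (adjusted p = 0.0402) from limma. HIF1A against A20-WT in A20-KO was no longer called in 11 of 20 other limma fits, among them without A20-WT replicate 2, each A20-KO library or each A20-OE library (adjusted p 0.0509 to 0.117), with adjusted p from 0.018 to 0.117 over the 20.

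EPAS1 (ENSG00000116016, chr2:46293667-46386703, plus strand), which encodes HIF-2α, was at 9.70, 10.7 and 10.3 FPKM in A20-WT, 14.9, 15.6 and 11.1 in A20-KO and 20.3, 21.6 and 19.5 in A20-OE. The groups did not overlap, but A20-KO replicate 3 lay close to A20-WT. EPAS1 rose by a log2 fold change of 0.42 (SE 0.13, adjusted p = 0.0466) in A20-KO against A20-WT, 0.57 (SE 0.13, adjusted p = 0.0313) in A20-OE against A20-KO and 0.99 (SE 0.13, adjusted p = 0.000571) in A20-OE against A20-WT (limma). The first of these calls was lost in 14 of 20 other limma fits, among them without each A20-WT library, A20-KO replicate 1 or 2 or each A20-OE library (adjusted p 0.0677 to 0.147), with adjusted p from 0.0062 to 0.147 over the 20. Its call from A20-KO to A20-OE was lost in 8 of 20 other limma fits, among them without A20-WT replicate 2, A20-KO replicate 1 or each A20-OE library (adjusted p 0.0549 to 0.12), with adjusted p from 0.021 to 0.12 over the 20.

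ARNT (ENSG00000143437, chr1:150809705-150876768, minus strand), the partner subunit of both, was at 6.57, 6.68 and 6.84 FPKM in A20-WT, 6.95, 7.34 and 5.33 in A20-KO and 8.81, 10.5 and 9.24 in A20-OE. A20-OE lay above the other groups, which overlapped with each other. From A20-KO to A20-OE ARNT rose by a log2 fold change of 0.54 (SE 0.13, adjusted p = 0.0369), and from A20-WT to A20-OE by 0.50 (SE 0.13, adjusted p = 0.0184) (limma). The log2 fold change from A20-WT to A20-KO was -0.05 (SE 0.13, adjusted p = 0.841) by limma. ARNT in A20-OE against A20-KO lost its call in 11 of 20 other limma fits, among them without A20-WT replicate 2, A20-KO replicate 1 or 3 or each A20-OE library (adjusted p 0.0659 to 0.138), with adjusted p from 0.023 to 0.138 over the 20. In A20-OE against A20-WT it was lost in 3 of 20 other limma fits, among them without A20-WT replicate 2 or A20-OE replicate 2 (adjusted p 0.0541 to 0.0702), with adjusted p from 0.0047 to 0.0702 over the 20.

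**Figure D4:**
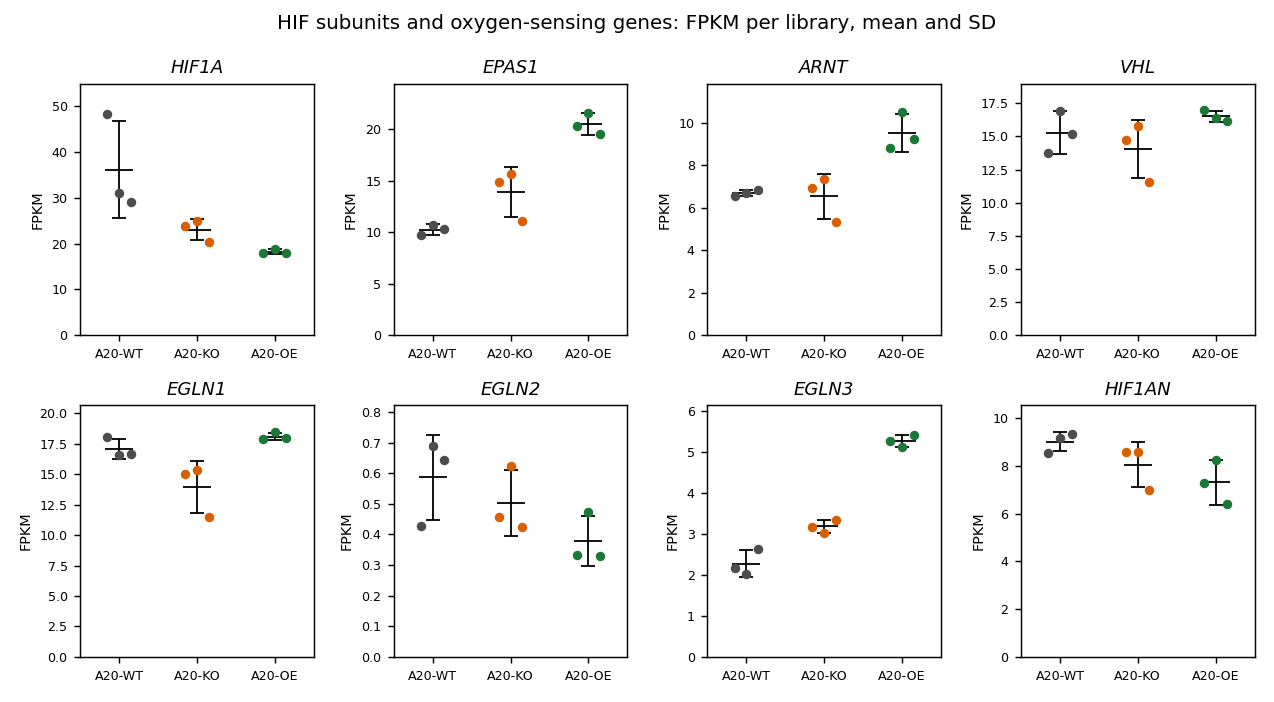
FPKM of the HIF subunits and oxygen-sensing genes in each library (points), with the mean (wide line) and SD (whiskers) of the 3 libraries of each group. HIF1A stands lower and EPAS1 and EGLN3 higher in A20-OE than in A20-WT, while VHL and EGLN2 overlap between these groups.

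Among the 5 genes for oxygen sensing and HIF destruction, EGLN3 was the one called in any comparison. EGLN3 (ENSG00000129521, chr14:33924231-34462774, minus strand), a HIF prolyl hydroxylase that is itself a known HIF target, was at 2.17, 2.02 and 2.64 FPKM in A20-WT, 3.18, 3.02 and 3.33 in A20-KO and 5.27, 5.13 and 5.40 in A20-OE. No group overlapped another, and the levels rose in that order. The log2 fold change was 0.47 (SE 0.12, adjusted p = 0.022) from A20-WT to A20-KO, 0.71 (SE 0.12, adjusted p = 0.0107) from A20-KO to A20-OE and 1.18 (SE 0.12, adjusted p = 0.000146) from A20-WT to A20-OE (limma). EGLN3 in A20-KO against A20-WT lost its call in 4 of 20 other limma fits, among them without A20-WT replicate 2 or A20-KO replicate 1 or 3 (adjusted p 0.0606 to 0.0749), with adjusted p from 0.0084 to 0.0753 over the 20. The call from A20-KO to A20-OE was lost in 1 of 20 other limma fits, that without A20-OE replicate 1 (adjusted p = 0.0548), with adjusted p from 0.0038 to 0.0548 over the 20.

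EGLN1, the main prolyl hydroxylase of HIF-1α in most cells, was at 18, 16.6 and 16.7 FPKM in A20-WT, 15, 15.3 and 11.4 in A20-KO and 17.9, 18.4 and 17.9 in A20-OE. The libraries labelled A20-KO lay below both other groups, which overlapped, but neither difference was called (log2 fold change -0.30 (SE 0.12, adjusted p = 0.094) against A20-WT and 0.39 (SE 0.12, adjusted p = 0.0743) from A20-KO to A20-OE, limma). VHL, the substrate receptor of the ubiquitin ligase, ranged from 11.6 to 17.0 FPKM over the 9 libraries, with log2 fold changes of -0.13 (SE 0.13, adjusted p = 0.511), 0.25 (SE 0.13, adjusted p = 0.268) and 0.12 (SE 0.13, adjusted p = 0.543) in A20-KO against A20-WT, A20-OE against A20-KO and A20-OE against A20-WT (limma). HIF1AN, the asparagine hydroxylase that blocks the transactivation domain of the alpha subunits, had A20-OE libraries (7.27, 8.25 and 6.39 FPKM) below those of A20-WT (8.55, 9.14 and 9.33), with a log2 fold change of -0.31 (SE 0.12, adjusted p = 0.0952) that was not called (limma). EGLN2, another prolyl hydroxylase, was low in all groups, between 0.331 and 0.688 FPKM on 50 to 113 reads, and its groups overlapped. Of its exonic bases 30.6% are shared on the same strand with the readthrough gene RAB4B-EGLN2 and with AC008537.1, so its reads are uncertain.

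Among the transcriptional regulators, MXI1 and BHLHE40 were called and CITED2 was not. MXI1 (ENSG00000119950, chr10:110207605-110287365, plus strand), a repressor that competes with MYC for its partner MAX, was at 15.2, 14.8 and 13.8 FPKM in A20-WT, 19, 21.5 and 18.4 in A20-KO and 33.1, 33.2 and 32.2 in A20-OE. No group overlapped another. MXI1 rose by a log2 fold change of 0.42 (SE 0.09, adjusted p = 0.00944) in A20-KO against A20-WT, 0.74 (SE 0.09, adjusted p = 0.00278) in A20-OE against A20-KO and 1.16 (SE 0.09, adjusted p = 3.41e-05) in A20-OE against A20-WT (limma). All 3 calls held in each of the 20 other limma fits.

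BHLHE40 (ENSG00000134107, chr3:4979116-4985323, plus strand), a basic helix-loop-helix repressor, followed another course. It was at 8.69, 11 and 12.4 FPKM in A20-WT, 24.2, 24.8 and 21.2 in A20-KO and 23.9, 23.9 and 26.2 in A20-OE, so that both other groups lay above A20-WT and overlapped with each other. BHLHE40 rose with a log2 fold change of 1.13 (SE 0.13, adjusted p = 0.000764) in A20-KO and 1.21 (SE 0.13, adjusted p = 0.000228) in A20-OE against A20-WT, and had 0.08 (SE 0.13, adjusted p = 0.76) in A20-OE against A20-KO (limma). CITED2, which competes with HIF-1α for the coactivators CREBBP and EP300 and is a HIF target, was at 25.3, 22.1 and 27.4 FPKM in A20-WT, 29.6, 29.3 and 28 in A20-KO and 30.3, 28.4 and 30.2 in A20-OE. A20-KO and A20-OE lay above A20-WT, but the log2 fold changes of 0.22 (SE 0.09, adjusted p = 0.129) and 0.25 (SE 0.09, adjusted p = 0.0726) were not called by limma. Without A20-WT replicate 3 the difference in A20-OE against A20-WT was called, at 0.32 (adjusted p = 0.0319) by limma.

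The secreted factors differed among themselves. ANGPTL4 (ENSG00000167772, chr19:8363289-8374373, plus strand), an inhibitor of lipoprotein lipase that is also linked to vessel growth, was at 9.46, 12.3 and 14.3 FPKM in A20-WT, 37.9, 35.9 and 48.6 in A20-KO and 70.9, 64.2 and 82.8 in A20-OE. The means were 12 ± 2.43, 40.8 ± 6.82 and 72.6 ± 9.40 FPKM (SD, n = 3 each), and no group overlapped another. ANGPTL4 rose by a log2 fold change of 1.76 (SE 0.18, adjusted p = 0.000375) from A20-WT to A20-KO, 0.84 (SE 0.18, adjusted p = 0.0235) from A20-KO to A20-OE and 2.60 (SE 0.18, adjusted p = 2.06e-05) from A20-WT to A20-OE (limma), the last being the highest of all members. Its call from A20-KO to A20-OE was lost in 6 of 20 other limma fits, among them without A20-KO replicate 1 or 2 or each A20-OE library (adjusted p 0.0624 to 0.0904), with adjusted p from 0.0038 to 0.0904 over the 20.

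VEGFA (ENSG00000112715, chr6:43770184-43786487, plus strand), the main growth factor of blood vessels, was at 4.06, 4.56 and 4.15 FPKM in A20-WT, 6.48, 5.76 and 5.52 in A20-KO and 7.02, 6.91 and 6.45 in A20-OE. A20-WT lay below both other groups, which overlapped. VEGFA rose by a log2 fold change of 0.47 (SE 0.10, adjusted p = 0.0112) in A20-KO and 0.66 (SE 0.10, adjusted p = 0.00125) in A20-OE against A20-WT, and had 0.20 (SE 0.10, adjusted p = 0.261) between A20-OE and A20-KO (limma). ADM, the vasodilator adrenomedullin, was at 33.8, 31.4 and 34.3 FPKM in A20-WT, 42.9, 38.1 and 47.3 in A20-KO and 36.4, 31.4 and 40.6 in A20-OE. The A20-KO libraries lay above A20-WT, and A20-OE overlapped both. No comparison of ADM was called (log2 fold change 0.36 (SE 0.12, adjusted p = 0.0577), -0.24 (SE 0.12, adjusted p = 0.236) and 0.12 (SE 0.12, adjusted p = 0.503) by limma in A20-KO against A20-WT, A20-OE against A20-KO and A20-OE against A20-WT). Its difference between A20-KO and A20-WT was called in 7 of the 20 other limma fits, among them without A20-KO replicate 2 at 0.44 (adjusted p = 0.047) and without A20-OE replicate 2 at 0.36 (adjusted p = 0.0485).

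Of the carbonic anhydrases, which hydrate carbon dioxide at the cell surface and so set the pH around the cell, CA12 was called and CA9 was not. CA12 (ENSG00000074410, chr15:63321378-63382161, minus strand) was at 0.881, 0.722 and 0.815 FPKM in A20-WT, 1.13, 1.37 and 0.857 in A20-KO and 2.09, 1.85 and 1.99 in A20-OE. A20-OE lay above both other groups, which overlapped. CA12 rose by a log2 fold change of 0.79 (SE 0.18, adjusted p = 0.0327) in A20-OE against A20-KO and 1.20 (SE 0.18, adjusted p = 0.00123) against A20-WT, and had 0.41 (SE 0.18, adjusted p = 0.142) in A20-KO against A20-WT (limma). Its call from A20-KO to A20-OE was lost in 7 of 20 other limma fits, among them without A20-WT replicate 2, A20-KO replicate 1 or 3 or each A20-OE library (adjusted p 0.053 to 0.121), with adjusted p from 0.014 to 0.121 over the 20. Without A20-KO replicate 3, CA12 was also called in A20-KO against A20-WT, at 0.57 (adjusted p = 0.0492) by limma.

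CA9 (ENSG00000107159, chr9:35673856-35681159, plus strand), among the most used markers of hypoxia in tumours, was low in all 9 libraries. It was at 0.507, 0.599 and 0.766 FPKM in A20-WT, 0.123, 0.0487 and 0.488 in A20-KO and 0.333, 0.676 and 1.02 in A20-OE, on 21, 25 and 32, 5, 2 and 19 and 13, 28 and 39 reads. A20-KO lay below A20-WT and A20-OE overlapped both. The log2 fold changes were -1.41 (SE 0.52, adjusted p = 0.0824), 1.42 (SE 0.52, adjusted p = 0.125) and 0.01 (SE 0.52, adjusted p = 0.995) for A20-KO against A20-WT, A20-OE against A20-KO and A20-OE against A20-WT (limma). Without A20-KO replicate 3, which had the most CA9 reads of its group, the first was -1.98 (adjusted p = 0.0203) and the second 1.99 (adjusted p = 0.0458), both called by limma. The first was also called in the fit that blocked on replicate number and by limma-voom on the recovered reads, with adjusted p from 0.0203 to 0.0369 over these 3 fits, and was not called in the remaining 16 of its 19 other fits. Of the exonic bases of CA9 38.5% lie opposite to exons of ARHGEF39, whose mean was 4.46 FPKM in A20-WT, 3.20 in A20-KO and 2.13 in A20-OE. ARHGEF39 was called lower in A20-KO against A20-WT, A20-OE against A20-KO and A20-OE against A20-WT (adjusted p = 0.0203, 0.0216 and 0.000248, limma). Without strand the reads of both genes cannot be told apart there.

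The mitochondrial members rose together in A20-OE. BNIP3 (ENSG00000176171, chr10:131966455-131982013, minus strand) and BNIP3L (ENSG00000104765, chr8:26382898-26505636, plus strand) encode receptors of the outer mitochondrial membrane that mark mitochondria for autophagy. BNIP3 was at 11.8, 11.1 and 11.6 FPKM in A20-WT, 13.7, 14.3 and 14.7 in A20-KO and 30.2, 27.4 and 31.8 in A20-OE. BNIP3L was at 16, 14.8 and 13.3 FPKM in A20-WT, 20.4, 20.3 and 19.1 in A20-KO and 40.8, 40.5 and 41.5 in A20-OE. In both genes no group overlapped another, and A20-OE was highest. BNIP3 rose by a log2 fold change of 0.30 (SE 0.09, adjusted p = 0.0341) from A20-WT to A20-KO, 1.06 (SE 0.09, adjusted p = 0.000674) from A20-KO to A20-OE and 1.36 (SE 0.09, adjusted p = 1.42e-05) from A20-WT to A20-OE (limma). BNIP3L rose by a log2 fold change of 0.44 (SE 0.09, adjusted p = 0.00864), 1.04 (SE 0.09, adjusted p = 0.000719) and 1.48 (SE 0.09, adjusted p = 1.36e-05) in the same comparisons (limma). The smallest of these, BNIP3 in A20-KO against A20-WT, lost its call in 8 of 20 other limma fits, among them without A20-WT replicate 2, each A20-KO library or A20-OE replicate 1 (adjusted p 0.0603 to 0.103), with adjusted p from 0.022 to 0.103 over the 20.

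FAM162A (ENSG00000114023, chr3:122384176-122412334, plus strand), a mitochondrial protein known from hypoxia-induced cell death, was at 12.8, 13.1 and 14 FPKM in A20-WT, 15.1, 13.7 and 19.8 in A20-KO and 34.6, 30.0 and 40.0 in A20-OE. A20-WT and A20-KO overlapped, and A20-OE lay above both. FAM162A rose by a log2 fold change of 1.11 (SE 0.15, adjusted p = 0.00465) from A20-KO to A20-OE and 1.38 (SE 0.15, adjusted p = 0.000213) from A20-WT to A20-OE, and had 0.27 (SE 0.15, adjusted p = 0.24) in A20-KO against A20-WT (limma). Both calls held in each of the 20 other limma fits. BNIP3, BNIP3L, FAM162A and the collagen hydroxylase gene P4HA1 were the 4 members called more than 2-fold higher in A20-OE than in A20-KO. Their log2 fold changes, 1.06, 1.04, 1.11 and 1.04, lay near the cutoff of 1, and the 2-fold demand was applied to the reported fit only.

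Genes of collagen modification were called in each comparison, with P4HA1 first among them. P4HA1 (ENSG00000122884, chr10:73007217-73096974, minus strand), a catalytic subunit of the prolyl hydroxylase that stabilises the collagen triple helix, was at 24.5, 21.2 and 21.7 FPKM in A20-WT, 57.8, 61.9 and 55.6 in A20-KO and 117, 118 and 125 in A20-OE. The means were 22.5 ± 1.78, 58.4 ± 3.20 and 120.2 ± 4.64 FPKM (SD, n = 3 each), which is 2.60-fold from A20-WT to A20-KO, 2.06-fold from A20-KO to A20-OE and 5.35-fold overall. P4HA1 rose by a log2 fold change of 1.38 (SE 0.09, adjusted p = 6.77e-05), 1.04 (SE 0.09, adjusted p = 0.000719) and 2.42 (SE 0.09, adjusted p = 1.99e-06) in A20-KO against A20-WT, A20-OE against A20-KO and A20-OE against A20-WT (limma). It was the member called more than 2-fold higher in all 3 comparisons. At adjusted p under 0.05, without the 2-fold demand, these 3 calls held in each of the 20 other limma fits.

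P4HA2 (ENSG00000072682, chr5:132191838-132295315, minus strand), the gene of the other main catalytic subunit, was at 4.73, 4.59 and 5.20 FPKM in A20-WT, 7.26, 6.34 and 6.81 in A20-KO and 8.51, 8.56 and 9.02 in A20-OE. No group overlapped another, but the step from A20-KO to A20-OE was not called. P4HA2 rose by a log2 fold change of 0.48 (SE 0.09, adjusted p = 0.00714) in A20-KO and 0.83 (SE 0.09, adjusted p = 0.000264) in A20-OE against A20-WT, and had 0.35 (SE 0.09, adjusted p = 0.0518) between A20-OE and A20-KO (limma). That last difference was called in 8 of the 20 other limma fits, among them without A20-WT replicate 1 at 0.35 (adjusted p = 0.0307) and without A20-WT replicate 3 at 0.35 (adjusted p = 0.0451).

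PLOD1 and PLOD2 encode lysyl hydroxylases, which prepare collagen for cross-linking. PLOD1 (ENSG00000083444, chr1:11934205-11975538, plus strand) was at 51.8, 55.6 and 65.7 FPKM in A20-WT, 80.7, 76 and 84.4 in A20-KO and 88.1, 81.1 and 94.7 in A20-OE. PLOD2 (ENSG00000152952, chr3:146069440-146163653, minus strand) was at 9.34, 6.82 and 5.73 FPKM in A20-WT, 8.75, 10.1 and 7.53 in A20-KO and 15.7, 15.6 and 15.6 in A20-OE. For PLOD1 the A20-WT libraries lay below both other groups, which overlapped, and for PLOD2 the A20-OE libraries lay above both other groups, which overlapped. PLOD1 rose by a log2 fold change of 0.48 (SE 0.11, adjusted p = 0.0148) in A20-KO and 0.61 (SE 0.11, adjusted p = 0.00319) in A20-OE against A20-WT, and had 0.13 (SE 0.11, adjusted p = 0.515) between A20-OE and A20-KO (limma). PLOD2 rose by 0.83 (SE 0.17, adjusted p = 0.0229) from A20-KO to A20-OE and 1.12 (SE 0.17, adjusted p = 0.00138) from A20-WT to A20-OE on the log2 scale, and had 0.29 (SE 0.17, adjusted p = 0.278) between A20-KO and A20-WT (limma). PLOD1 in A20-KO against A20-WT was no longer called in 2 of 20 other limma fits, those without A20-WT replicate 2 or A20-KO replicate 1 (adjusted p 0.0528 to 0.053), with adjusted p from 0.0048 to 0.053 over the 20. PLOD2 in A20-OE against A20-KO was no longer called in 5 of 20 other limma fits, those without A20-KO replicate 1 or 3 or each A20-OE library (adjusted p 0.0674 to 0.092), with adjusted p from 0.006 to 0.092 over the 20. Without A20-WT replicate 1, PLOD2 was also called in A20-KO against A20-WT, at 0.48 (adjusted p = 0.0405) by limma.

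ERO1A (ENSG00000197930, chr14:52639916-52695900, minus strand), an oxidase that drives disulfide bond formation in the endoplasmic reticulum, was at 23.4, 17.1 and 15.7 FPKM in A20-WT, 14.6, 16.1 and 12.3 in A20-KO and 22.1, 23.7 and 22.1 in A20-OE. A20-OE lay above A20-KO and overlapped A20-WT. ERO1A rose by a log2 fold change of 0.66 (SE 0.16, adjusted p = 0.0341) from A20-KO to A20-OE, and had -0.37 (SE 0.16, adjusted p = 0.121) in A20-KO and 0.29 (SE 0.16, adjusted p = 0.193) in A20-OE against A20-WT (limma). Its call was lost in 9 of 20 other limma fits, among them without A20-WT replicate 2, A20-KO replicate 1 or 3 or each A20-OE library (adjusted p 0.0582 to 0.129), with adjusted p from 0.008 to 0.129 over the 20. Without A20-WT replicate 1 the difference of A20-OE from A20-WT was called, at 0.46 (adjusted p = 0.0186) by limma. LOX, the lysyl oxidase that cross-links collagen outside the cell, was low, between 0.126 and 0.333 FPKM on 16 to 44 reads per library, and overlapped in every comparison.

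The oxygenase genes for chromatin and related proteins did not share 1 direction. KDM3A (ENSG00000115548, chr2:86440647-86492716, plus strand), a demethylase of histone H3 lysine 9, was at 6.18, 4.66 and 4.53 FPKM in A20-WT, 7.95, 8.63 and 6.41 in A20-KO and 12.5, 13.3 and 13.2 in A20-OE. No group overlapped another. KDM3A rose by a log2 fold change of 0.58 (SE 0.15, adjusted p = 0.0226) in A20-KO against A20-WT, 0.76 (SE 0.15, adjusted p = 0.0174) in A20-OE against A20-KO and 1.34 (SE 0.15, adjusted p = 0.000222) in A20-OE against A20-WT (limma). The call in A20-KO against A20-WT was lost in 5 of 20 other limma fits, among them without A20-WT replicate 2 or 3 or A20-KO replicate 1 or 2 (adjusted p 0.0598 to 0.0784), with adjusted p from 0.0073 to 0.0791 over the 20. KDM3A in A20-OE against A20-KO lost its call in 4 of 20 other limma fits, those without A20-KO replicate 1 or each A20-OE library (adjusted p 0.0577 to 0.0771), with adjusted p from 0.0066 to 0.0771 over the 20.

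KDM4B (ENSG00000127663, chr19:4969113-5153595, plus strand), a demethylase of the same residue when trimethylated, was at 3.90, 5.31 and 5.71 FPKM in A20-WT, 7.19, 7 and 6.14 in A20-KO and 12.1, 11.8 and 11.1 in A20-OE. No group overlapped another, although A20-KO was not called different from A20-WT. KDM4B rose by a log2 fold change of 0.78 (SE 0.14, adjusted p = 0.015) in A20-OE against A20-KO and 1.23 (SE 0.14, adjusted p = 0.00031) in A20-OE against A20-WT, and had 0.45 (SE 0.14, adjusted p = 0.0507) in A20-KO against A20-WT (limma). Its call in A20-OE against A20-KO was lost in 3 of 20 other limma fits, those without A20-KO replicate 3 or A20-OE replicate 1 or 2 (adjusted p 0.0517 to 0.0741), with adjusted p from 0.0025 to 0.0741 over the 20. The difference of A20-KO from A20-WT was called in 5 of the 20 other limma fits, among them without A20-WT replicate 3 at 0.56 (adjusted p = 0.028).

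KDM4C (ENSG00000107077, chr9:6720863-7175648, plus strand), a paralog of KDM4B, was at 2.04, 1.93 and 2.08 FPKM in A20-WT, 2.46, 2.27 and 1.76 in A20-KO and 3.34, 3.15 and 2.94 in A20-OE. A20-OE lay above both other groups, which overlapped. KDM4C rose by a log2 fold change of 0.53 (SE 0.14, adjusted p = 0.0496) in A20-OE against A20-KO and 0.61 (SE 0.14, adjusted p = 0.00979) against A20-WT, and had 0.08 (SE 0.14, adjusted p = 0.723) in A20-KO against A20-WT (limma). The call in A20-OE against A20-KO was lost in 14 of 20 other limma fits, among them without A20-WT replicate 2 or 3, each A20-KO library or each A20-OE library (adjusted p 0.0599 to 0.166), with adjusted p from 0.034 to 0.166 over the 20. JMJD6 (ENSG00000070495, chr17:76712832-76726799, minus strand), a lysyl hydroxylase of splicing proteins, was at 11.7, 11 and 12.7 FPKM in A20-WT, 11.7, 11.7 and 12.8 in A20-KO and 9.15, 9.28 and 8.93 in A20-OE. A20-OE lay below both other groups, which overlapped. JMJD6 fell with a log2 fold change of -0.40 (SE 0.09, adjusted p = 0.0271) in A20-OE against A20-KO and -0.37 (SE 0.09, adjusted p = 0.0119) against A20-WT, and had 0.03 (SE 0.09, adjusted p = 0.824) in A20-KO against A20-WT (limma). Its call in A20-OE against A20-KO was lost in 7 of 20 other limma fits, among them without each A20-KO library or each A20-OE library (adjusted p 0.0528 to 0.0977), with adjusted p from 0.014 to 0.0977 over the 20.

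Of the other induced genes, ANKRD37 and DDIT4 were highest in the A20-KO-labelled libraries. ANKRD37 (ENSG00000186352, chr4:185396021-185400628, plus strand), a small ankyrin repeat protein, was at 2.28, 1.86 and 2.51 FPKM in A20-WT, 8.32, 7.58 and 10.4 in A20-KO and 6.07, 6.25 and 5.43 in A20-OE. No group overlapped another, and A20-OE lay between the others. ANKRD37 rose by a log2 fold change of 1.93 (SE 0.15, adjusted p = 0.000148) in A20-KO and 1.38 (SE 0.15, adjusted p = 0.000211) in A20-OE against A20-WT, the former being the highest of all members in that comparison (limma). The difference of A20-OE from A20-KO was -0.55 (SE 0.15, adjusted p = 0.055), which was not called by limma, and was called lower in 5 of the 20 other limma fits (pseudocount 1, a mean of at least 1 FPKM, limma-voom on recovered reads and both scalings to recovered reads). Of its exonic bases 35.2% lie opposite to exons of UFSP2, which was at a mean of 6.31, 4.97 and 5.65 FPKM in A20-WT, A20-KO and A20-OE and was not called in any comparison.

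DDIT4 (ENSG00000168209, chr10:72273920-72276036, plus strand), an inhibitor of mTORC1 signalling, was at 10.2, 28.8 and 34.4 FPKM in A20-WT, 54.3, 41.8 and 55.9 in A20-KO and 41, 37.3 and 40.2 in A20-OE. A20-KO lay above A20-OE and A20-OE above A20-WT without overlap, and A20-WT replicate 1 was far below the other A20-WT libraries. DDIT4 rose by a log2 fold change of 1.21 (SE 0.38, adjusted p = 0.0489) in A20-KO against A20-WT, and had -0.35 (SE 0.38, adjusted p = 0.609) in A20-OE against A20-KO and 0.86 (SE 0.38, adjusted p = 0.118) against A20-WT (limma). Without A20-WT replicate 1 the rise was 0.67 (adjusted p = 0.0151) by limma, under 2-fold. DDIT4 in A20-KO against A20-WT was no longer called in 12 of 20 other limma fits, among them without A20-WT replicate 2, each A20-KO library or each A20-OE library (adjusted p 0.0606 to 0.137), with adjusted p from 0.011 to 0.138 over the 20. Without A20-WT replicate 3, DDIT4 was also called in A20-OE against A20-WT, at 1.20 (adjusted p = 0.0452) by limma. DDIT4-AS1, opposite to 41.2% of its exonic bases, was listed at 0 in all libraries.

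PPFIA4 and TMEM45A were both higher in the A20-KO-labelled libraries than in A20-WT. PPFIA4 (ENSG00000143847, chr1:203026498-203078740, plus strand), a liprin scaffold protein, was at 1.65, 1.89 and 1.36 FPKM in A20-WT, 2.67, 2.77 and 2.63 in A20-KO and 5.08, 5.59 and 4.86 in A20-OE. No group overlapped another. PPFIA4 rose by a log2 fold change of 0.70 (SE 0.13, adjusted p = 0.00642), 0.92 (SE 0.13, adjusted p = 0.00631) and 1.61 (SE 0.13, adjusted p = 5.27e-05) in A20-KO against A20-WT, A20-OE against A20-KO and A20-OE against A20-WT (limma), and each call held in all 20 other fits. TMEM45A (ENSG00000181458, chr3:100492619-100577444, plus strand), a transmembrane protein, was at 1.13, 1.17 and 1.14 FPKM in A20-WT, 1.61, 1.71 and 1.81 in A20-KO and 1.98, 1.62 and 1.72 in A20-OE. A20-WT lay below both other groups, which overlapped. TMEM45A rose by a log2 fold change of 0.54 (SE 0.13, adjusted p = 0.018) in A20-KO and 0.58 (SE 0.13, adjusted p = 0.00853) in A20-OE against A20-WT, and had 0.05 (SE 0.13, adjusted p = 0.863) between A20-OE and A20-KO (limma). Its call in A20-KO was lost in 1 of 20 other limma fits, that without A20-KO replicate 3 (adjusted p = 0.0502), with adjusted p from 0.015 to 0.0502 over the 20.

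FUT11, WSB1 and INSIG2 were called in A20-OE against each of the other groups, which overlapped with each other in all 3 genes. FUT11 (ENSG00000196968, chr10:73772291-73780251, plus strand), a fucosyltransferase family member, was at 4.38, 4.38 and 5.29 FPKM in A20-WT, 4.92, 5.29 and 3.97 in A20-KO and 8.28, 8.87 and 8.85 in A20-OE. WSB1 (ENSG00000109046, chr17:27294076-27315926, plus strand), a substrate receptor of a ubiquitin ligase, was at 10.2, 9.25 and 6.96 FPKM in A20-WT, 9.39, 9.07 and 7.60 in A20-KO and 14, 14.7 and 13.9 in A20-OE. INSIG2 (ENSG00000125629, chr2:118088452-118110997, plus strand), which holds the sterol sensor complex in the endoplasmic reticulum, was at 7, 6.47 and 5.75 FPKM in A20-WT, 6.98, 7.30 and 6.43 in A20-KO and 10.3, 9.44 and 10.3 in A20-OE. In each gene all 3 A20-OE libraries lay above the 6 others. FUT11 rose by a log2 fold change of 0.87 (SE 0.13, adjusted p = 0.00667) in A20-OE against A20-KO and 0.88 (SE 0.13, adjusted p = 0.00108) against A20-WT, with 0.01 (SE 0.13, adjusted p = 0.982) in A20-KO against A20-WT (limma). WSB1 rose by 0.71 (SE 0.15, adjusted p = 0.022) and 0.70 (SE 0.15, adjusted p = 0.00604) on the log2 scale in the same comparisons, with -0.01 (SE 0.15, adjusted p = 0.988) in A20-KO against A20-WT (limma). INSIG2 rose by 0.53 (SE 0.10, adjusted p = 0.0178) and 0.64 (SE 0.10, adjusted p = 0.00168), with 0.11 (SE 0.10, adjusted p = 0.499) in A20-KO against A20-WT (limma). The call of WSB1 in A20-OE against A20-KO was lost in 5 of 20 other limma fits, those without A20-KO replicate 1 or 3 or each A20-OE library (adjusted p 0.0581 to 0.0919), with adjusted p from 0.0089 to 0.0919 over the 20. INSIG2 lost its call in A20-OE against A20-KO in 5 of 20 other limma fits, those without A20-KO replicate 1 or 3 or each A20-OE library (adjusted p 0.0507 to 0.0843), with adjusted p from 0.0087 to 0.0843 over the 20.

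The members spanned a wide range of levels, 19 with a mean of at least 10 FPKM over the 9 libraries, 14 between 1 and 10 FPKM and 4 under 1 FPKM. The 4 low genes were CA9, EGLN2, LOX and RORA, of which the 3 that were tested were not called. Neighbouring genes of the pathway were counted in 3 further lists. Of 12 other genes of the HIF machinery 11 were tested, and 1 was called higher and 0 lower in A20-KO against A20-WT, 0 and 1 in A20-OE against A20-KO, and 1 and 4 in A20-OE against A20-WT, with median log2 fold changes of -0.19, -0.15 and -0.34. The gene called higher was CITED4, a coactivator-binding relative of CITED2, at a mean of 4.13 ± 2.002 FPKM in A20-WT, 14.7 ± 3.28 in A20-KO and 15.1 ± 1.99 in A20-OE (SD, n = 3). Among those called lower were SIAH2, a ubiquitin ligase that acts on prolyl hydroxylases (-0.50 in A20-OE against A20-KO), the coactivator CREBBP (-0.61 in A20-OE against A20-WT) and CUL2, the scaffold of the VHL ligase (-0.50 in A20-OE against A20-WT).

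Of 37 other hypoxia-induced genes outside glycolysis 34 were tested, and 9 were called higher and 4 lower in A20-KO against A20-WT, 11 and 1 in A20-OE against A20-KO, and 16 and 4 in A20-OE against A20-WT, with median log2 fold changes of 0.23, 0.18 and 0.46. SPAG4, a sperm-associated antigen gene, rose from A20-WT to A20-KO with a log2 fold change of 1.15. From A20-KO to A20-OE, IGFBP3, a binding protein of insulin-like growth factors, rose by 2.72 and LOXL2, a relative of LOX, by 1.51 on the log2 scale. IGFBP3 rose from a low level, with means of 0.313 FPKM in A20-WT, 0.517 in A20-KO and 3.89 in A20-OE. HMOX1, which degrades heme, rose by 2.43 from A20-WT to A20-OE. Of the 24 glycolytic HIF targets, all tested, 5 were called higher and 2 lower in A20-KO against A20-WT, 11 and 0 in A20-OE against A20-KO, and 17 and 0 in A20-OE against A20-WT, with medians of 0.02, 0.50 and 0.51. The background of these counts is the share of all genes called. It was 11.3% higher and 11% lower in A20-KO against A20-WT, 4.43% and 4.54% in A20-OE against A20-KO, and 15.7% and 15.4% in A20-OE against A20-WT. The 4 of 34 hypoxia-induced genes lower in A20-KO than in A20-WT lie near that share. So does the 1 of 11 machinery genes called higher in that comparison.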

How the data were processed

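RNA of 9 HCT116 libraries (A20-WT, A20-KO and A20-OE, 3 each, grouped by genotype label) was sequenced as 150 bp paired-end reads. The authors aligned and counted the reads (HISAT2 2.0.5 and featureCounts 1.5.0-p3 in the submitters' processing notes) and deposited FPKM per gene, which are not counts. Gene coordinates matched GENCODE 29 on GRCh38 for 99.9% of genes. The strand setting of the counting is not given in the sources used here.

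The main test was limma 3.58.1 (R 4.3.3) on log2(FPKM + 0.1) over the 21636 genes with a mean of at least 0.1 FPKM, with a variance trend, the 3 groups in one fit and Benjamini-Hochberg adjustment; adjusted p under 0.05 was called. Fold changes on this scale understate those of low genes. Exact permutation of 3 libraries against 3 cannot give p under 0.1 and was not used. Whole reads (FPKM times gene length) were recovered for limma-voom and depth, with 23406222 to 24963691 per library, and were used for alternatives only. Since the reads carry no molecular identifiers, their numbers speak for counting error only.

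The members, the lists and the tests were chosen with earlier results of these data known. Named were all members, TNFAIP3, genes overlapping members, and from each further list at most the 3 called genes with the largest absolute log2 fold change per comparison. Alternatives were pseudocounts 1 and 0.01, no filter or a mean of at least 1 FPKM, scaling by median of ratios, fits restricted to the 2 groups of a comparison, a block for the replicate number, a fit without the variance trend, limma-voom, a log2 fold change above 1, and each library left out; 2 scalings to recovered reads were added after seeing the data. Promoter letters were matched on both strands.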

Additional observations from a re-analysis of the deposited data

How the results depend on the processing

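No called difference of a member changed sign in any of the fits, while 11 differences near 0 that were not called did, among them CA9 in A20-OE against A20-WT (0.01 as reported, -0.31 without A20-OE replicate 3). Member counts within 1.5 times of those reported are not repeated here. The count of members lower in A20-KO than in A20-WT, 1 as reported, was 0 without a filter, with only the 2 groups in the fit, without a variance trend and when scaled to reads outside mitochondrial genes, and 2 by limma-voom. The count lower in A20-OE than in A20-KO, 1 as reported, was 2 with a pseudocount of 1, a mean of at least 1 FPKM, limma-voom and both scalings to recovered reads, and 0 without a variance trend. With a log2 fold change above 1 the higher counts were 5, 4 and 14 and the lower counts 0, 0 and 0 for A20-KO against A20-WT, A20-OE against A20-KO and A20-OE against A20-WT. At that cutoff 1063, 337 and 1661 of all genes were called higher and 449, 180 and 910 lower. Leaving out 1 library at a time gave 10 to 16 higher and 0 to 1 lower members in A20-KO against A20-WT, 7 to 20 and 0 to 2 in A20-OE against A20-KO, and 23 to 26 and 2 to 2 in A20-OE against A20-WT. The cause of these changes was not tested, and a fit without 1 library also has fewer libraries to estimate the spread.

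With the replicate block, 16 members were higher and 2 lower in A20-KO against A20-WT, 20 and 1 in A20-OE against A20-KO, and 24 and 2 in A20-OE against A20-WT. The block fit called 2759, 1231 and 3664 of all genes higher and 2843, 1346 and 3684 lower. The deviations of same-numbered libraries from their group means correlated by -0.03 to 0.12, those of differently numbered libraries by -0.13 to 0.07, so the numbers were not taken to pair the libraries.

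With 3 libraries per group, 23 calls, 1 of them of TNFAIP3, were lost in at least 1 other fit, and CA9, EGLN2 and LOX rest on at most 113 reads per library. Antisense and readthrough overlaps limit ANKRD37, CA9, DDIT4 and EGLN2.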

Other observations

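The other core of hypoxia response elements, GCGTG, was in 23 of the 42 member windows (54.8%) on either strand, against 36.5% of all promoter windows and 47.5% of those of tested genes. Counted by gene, it was in 18 of 32 members (56.2%) and 6449 of 11371 tested genes with a window (56.7%). Both shares are descriptions of letters, and no binding was measured.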
